A study of Homo sapiens with 6 samples.

Results

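The 10 genes described here encode the cyclins and kinases that carry a cell from G1 into S phase: the D-type cyclins CCND1, CCND2 and CCND3, their kinases CDK4 and CDK6, the E-type cyclins CCNE1 and CCNE2, the A-type cyclin CCNA2, the kinase CDK2 and its activating phosphatase CDC25A. They were taken by name from the 18132 genes with a probe set of their own, and every probe set annotated to 1 of them alone was included, which gave 29 of the 49372 probe sets in the table. The RNA was that of A549, an established line of human lung adenocarcinoma, and each sample went onto 1 one-colour array. The knockdown group holds 3 arrays of cells in which the long noncoding RNA LINC00525 was silenced, and the control group holds 3 arrays of cells given a scrambled negative control. The labels differ on the reagent, "sh" in the titles and small interfering RNA in the treatment text, and 2 knockdown samples carry another name in the genotype field, LINC00526 for replicate 2 and LINC00527 for replicate 3. Every array comes from the same cell line. Nothing states that replicates were grown as separate cultures, so each p-value refers to the spread between these 6 samples, part or all of which may be technical.

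The measured unit is the log2 signal of a probe set after RMA, so that a difference of 1 is a doubling and a change is relative to the typical probe set of the array. LINC00525 read 3.67, 3.45 and 3.54 on knockdown arrays, against 3.86, 3.74 and 3.97 on control arrays. The groups did not overlap, and the change was -0.30 ± 0.075 (SE; limma adjusted p = 0.0422) at a signal that 1 of 17 Tag probe sets exceeded. Tag probe sets match no human transcript and averaged 2.27 to 4.60 on control arrays, which serves below as the background range. LINC00525 lay within that range in both groups, so its signal cannot be told from background and is a weak check of the silencing, although the difference passed. Of 5 epithelial markers, KRT8, KRT18 and KRT7 averaged above 11 in both groups, CDH1 averaged 8.47 on knockdown and 8.54 on control arrays and EPCAM 5.16 and 5.43, and KRT8 fell by 0.15 (limma adjusted p = 0.0474). ALDH1A1, AKR1B10 and AKR1C1, abundant in A549 cells, averaged above 11 in both groups. Of 3 leukocyte markers, PTPRC lay within the background range, while CD14 averaged 6.19 on knockdown and 6.25 on control arrays and CD3E 4.57 and 4.64, with no Tag probe set above their control means; none of the 3 passed. The 4 fibroblast markers averaged 2.07 to 4.38 on knockdown and 1.91 to 4.35 on control arrays, and none passed. Precision is limited by having 3 arrays in a group.

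Cyclins are the regulatory subunits of cyclin-dependent kinases and give them their timing. In G1, cyclin D with CDK4 or CDK6 starts the phosphorylation of the retinoblastoma protein, which releases E2F transcription factors. E2F then drives transcription of cyclin E, cyclin A and CDC25A, and cyclin E with CDK2 completes the phosphorylation. CDC25A removes inhibitory phosphates from CDK2. The product of CDKN1A, p21, which the title of the series names, binds and inhibits cyclin-CDK2 complexes. The D-type cyclins lie upstream of E2F and answer mainly to growth factor signals.

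CCNE2, CDC25A and CCND3 had lower signals on knockdown arrays, and none of the 10 genes rose in the fit as designed; CCND1, which was higher, passed in some other fits given with its values. Of the 29 probe sets, 4 fell: both of CCNE2, 1 of 3 of CDC25A and 1 of 2 of CCND3 (limma, Benjamini-Hochberg adjusted p under 0.05 over 49293 probe sets). That is 13.8% of the probe sets of these genes, while 5.25% of all probe sets fell, 4.59% rose and 9.85% did one or the other. Before adjustment, 11 of the 29 had a p under 0.05, of which 9 were lower and 2, both of CCND1, were higher. The share of all probe sets with such a p was not counted, so these 11 cannot be set against it. The median log2 change of the 29 was -0.08, against -0.01 over all probe sets. The knockdown and control values did not overlap for 12 of the 29 (41.4%), 9 of them lower, against 28.6% of all probe sets. With 1 probe set a gene, the one with the highest mean signal, 3 of 10 genes fell and 0 rose, while 6.83% of all genes fell and 5.77% rose. The groups did not overlap for 7 of the 10 genes, against 30.8% of all genes. These shares over all probe sets and all genes include dim ones. In the fit limited to a mean signal of at least 5, 16.5% of all probe sets fell, against 6 of the 22 left of these genes. Over genes with such a signal, 1875 of 10514 fell and 1317 rose, while 4 of the genes described here fell and 1, CCND1, rose. The suffixes _s_at and _x_at mark probe sets whose probes can bind more than 1 transcript. In RNA from a whole culture, fewer cells expressing a transcript and less of it in each cell cannot be told apart.

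**Figure D1:**
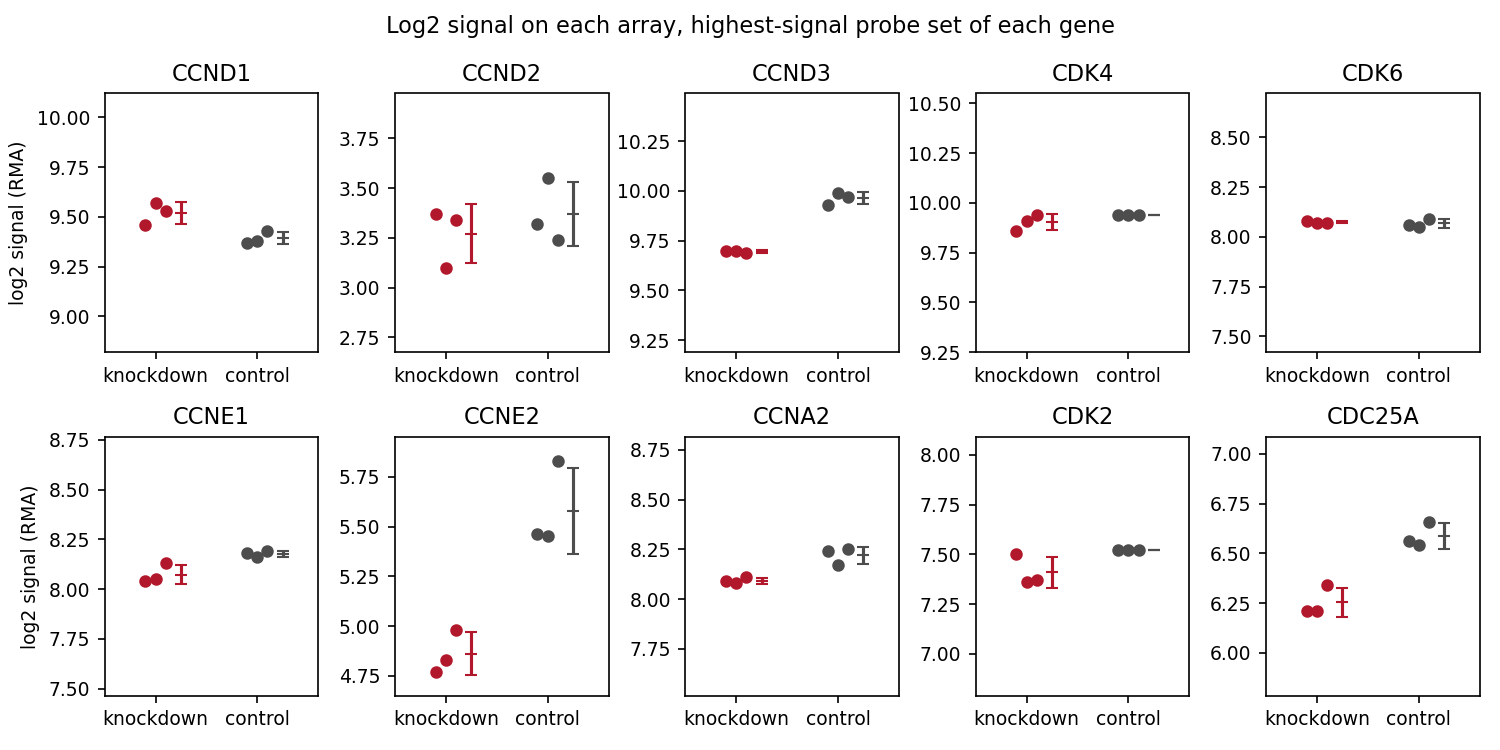
Log2 RMA signal (vertical axis, each panel spanning the same 1.3 log2 units) on each of the 3 knockdown and 3 control arrays for the probe set of each gene with the highest mean signal. Points are arrays and the bars beside them are the mean ± SD (n = 3). For CCNE2, CDC25A and CCND3 the knockdown points lie well below the control points, while for CDK4, CDK6 and CCND2 the groups overlap.

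CCND3 encodes cyclin D3, a partner of CDK4 and CDK6, and was the only D-type cyclin past the threshold. Probe set 11754434_a_at read 9.70, 9.70 and 9.69 on knockdown arrays, against 9.93, 9.99 and 9.97 on control arrays. Each group is tight and the groups stand apart. The change was -0.27 ± 0.040 (SE; limma adjusted p = 0.00640), or 16.9% lower, with a 95% confidence interval of -0.36 to -0.17. It passed in every fit that left out 1 array (limma adjusted p of 0.0194 to 0.0350), and the exact permutation p was 0.1. The other CCND3 probe set, 11762304_a_at, averaged 2.73 on knockdown and 2.70 on control arrays, where 9 of 17 Tag probe sets lay above it, so it measured little above background. With both averaged, CCND3 was at -0.12 and did not pass (limma adjusted p = 0.111 over genes).

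CCND1 encodes cyclin D1, the D-type cyclin most often tied to growth factor signalling. At 11721255_at it read 9.46, 9.57 and 9.53 on knockdown arrays, against 9.37, 9.38 and 9.43 on control arrays. The knockdown values all lie above the control values, but the change of 0.13 ± 0.046 did not pass (limma adjusted p = 0.135; 0.0130 with an intensity trend, which passes). In the fit over genes it passed upward with an intensity trend (limma adjusted p = 0.00881), after cyclic loess (0.0487) and with a mean signal of at least 5 (0.0395). Probe sets 11721257_at and 11751330_a_at were also higher without overlap, at 0.12 ± 0.050 and 0.12 ± 0.054 (limma adjusted p = 0.200 and 0.203). The fourth, 11721256_a_at, went the other way at -0.08 ± 0.049, with overlapping groups. Within an array CCND1 minus CCND3 was -0.24, -0.13 and -0.16 on knockdown arrays, against -0.56, -0.61 and -0.54 on control arrays. The change in that difference, 0.39 ± 0.039 (SE), separates the groups completely, with an exact permutation p of 0.1, the smallest that 3 arrays against 3 can give (adjusted p = 0.25 over the 5 pairs of related genes compared). Such a difference is free of any constant added to the array, and its level has no meaning of its own, since probe sets differ in response. With all probe sets of each gene averaged, the change was 0.19.

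CCND2, which encodes cyclin D2, was measured by 3 probe sets that all lay within the background range, with 2, 6 and 16 of 17 Tag probe sets above their control means. Probe set 11719199_a_at, the brightest, read 3.37, 3.10 and 3.34 on knockdown arrays, against 3.32, 3.55 and 3.24 on control arrays. The groups overlap on all 3 probe sets, and the changes of -0.10, 0.17 and 0.01 did not pass (limma adjusted p of 0.387 to 0.896). Signals in this range cannot be told from background in either group. For CCND1 minus CCND2 and CCND2 minus CCND3 the exact permutation p was 0.3 and 0.2 (adjusted p = 0.30 and 0.25), with 95% intervals of the change of -0.20 to 0.66 and -0.17 to 0.50.

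CDK4 and CDK6, the kinases that D-type cyclins activate, did not pass on any of their 8 probe sets. At 11750512_x_at CDK4 read 9.86, 9.91 and 9.94 on knockdown arrays and 9.94 on each of the 3 control arrays. The highest knockdown array equals the control value, and the change was -0.04 ± 0.042 (95% confidence interval -0.13 to 0.06; limma adjusted p = 0.655). The other 3 CDK4 probe sets gave -0.07 to -0.01, none past the threshold and all with overlapping groups. CDK6 at 11723243_at read 8.08, 8.07 and 8.07 on knockdown arrays, against 8.06, 8.05 and 8.09 on control arrays, a change of 0.01 ± 0.039 (95% confidence interval -0.08 to 0.10). Probe sets 11723244_at and 11723241_at gave -0.00 and -0.08 with overlapping groups. The fourth, 11723242_at, read 4.76, 4.97 and 4.84 on knockdown arrays, against 5.22, 5.10 and 5.02 on control arrays. These groups do not overlap, and the change of -0.26 ± 0.071 lay just outside the threshold (limma adjusted p = 0.0593; 0.0327 with an intensity trend, which passes). For CDK4 minus CDK6 the change within an array was -0.04 ± 0.029 (SE; 95% interval -0.12 to 0.04, exact permutation p = 0.2).

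CCNE2, which encodes cyclin E2, had the largest change of the 10 genes. Its probe set 11728300_at read 4.77, 4.83 and 4.98 on knockdown arrays, against 5.46, 5.45 and 5.83 on control arrays. The highest knockdown value lies below the lowest control value, and control replicate 3 stands above the other control arrays. The log2 change was -0.72 ± 0.11 (SE; limma adjusted p = 0.00551), so the signal was 39.3% lower, with a 95% confidence interval of -0.96 to -0.48. Without control replicate 3 the change was -0.60 and still passed, and the brighter CCNE2 probe set was then 11728301_a_at, so that the gene stood at -0.34 in the fit over genes (limma adjusted p = 0.0248). Without variance moderation neither CCNE2 probe set passed (adjusted p = 0.0810 and 0.0860). The second probe set, 11728301_a_at, read 5.03, 4.97 and 5.13 on knockdown arrays, against 5.36, 5.40 and 5.27 on control arrays. These groups do not overlap either, and the change was -0.30 ± 0.057 (limma adjusted p = 0.0164), or 18.8% lower. That second call was lost when knockdown replicate 1, knockdown replicate 2, control replicate 1 or control replicate 2 was left out (limma adjusted p of 0.0513 to 0.0697). For each CCNE2 probe set the exact permutation test on the 6 values gave p = 0.1, the smallest value that 3 arrays against 3 can give. Both control means lay above all 17 Tag probe sets. The CCNE2 knockdown means, 4.86 and 5.04, lay above the top of the background range, 4.60, but close to it.

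CCNE1 encodes cyclin E1, the other E-type cyclin and partner of the same kinase. Probe set 11724407_s_at read 8.04, 8.05 and 8.13 on knockdown arrays, against 8.18, 8.16 and 8.19 on control arrays. The groups do not overlap, but the gap between them is small, and the change of -0.10 ± 0.044 did not pass (limma adjusted p = 0.191). Its other probe set, 11724406_a_at, overlapped between groups at 5.57, 5.56 and 5.71 on knockdown arrays and 5.54, 5.56 and 5.67 on control arrays, with a change of 0.02 ± 0.059. Within an array, CCNE2 minus CCNE1 was -3.27, -3.22 and -3.15 on knockdown arrays, against -2.72, -2.71 and -2.36 on control arrays. These differences do not overlap between groups, and their change was -0.62 ± 0.12 (SE; 95% interval -0.96 to -0.27), with an exact permutation p of 0.1 (adjusted p = 0.25 over the 5 pairs).

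CCNA2 encodes cyclin A2, which takes over CDK2 in S phase. Its probe sets gave the same small difference. At 11722571_at it read 8.09, 8.08 and 8.11 on knockdown arrays, against 8.24, 8.17 and 8.25 on control arrays. At 11722572_at it read 8.05, 8.0 and 8.06 on knockdown arrays, against 8.17, 8.15 and 8.18 on control arrays. Neither pair of groups overlaps, and the changes of -0.13 ± 0.043 and -0.13 ± 0.041 missed the threshold (limma adjusted p = 0.108 and 0.0897). With both averaged and fitted over genes, CCNA2 passed at -0.13 (limma adjusted p = 0.0431), and it passed on both probe sets with an intensity trend (adjusted p = 0.0234 and 0.0177).

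CDK2, the kinase of cyclins E and A, did not pass on any probe set. At 11741208_a_at it read 7.50, 7.36 and 7.37 on knockdown arrays and 7.52 on all 3 control arrays, a change of -0.11 ± 0.050 (limma adjusted p = 0.220). The groups do not overlap, although knockdown replicate 1 lies within 0.02 of the controls. Probe set 11720781_a_at had the same value on 5 of the 6 arrays, so the pair is close to 1 measurement counted 2 times among the 29. The remaining one, 11720782_a_at, gave -0.01 ± 0.045 with overlapping groups (95% confidence interval -0.11 to 0.10).

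CDC25A encodes the phosphatase that switches on CDK2. All 3 of its probe sets had a lower mean on knockdown arrays, and 1 passed. Probe set 11726757_s_at read 6.21, 6.21 and 6.34 on knockdown arrays, against 6.56, 6.54 and 6.66 on control arrays. No knockdown value reaches the control range, and the change was -0.33 ± 0.056 (SE; limma adjusted p = 0.00961), or 20.6% lower, with a 95% confidence interval of -0.46 to -0.21. The call held when any 1 array was left out (limma adjusted p of 0.0113 to 0.0406) and was lost without variance moderation (adjusted p = 0.0659). Probe set 11726758_a_at gave -0.22 ± 0.11 (limma adjusted p = 0.267), and 11726756_a_at gave -0.20 ± 0.083 (limma adjusted p = 0.190). On both the groups overlap, and the control mean of each, 4.52 and 3.86, lay within the background range with 1 of 17 Tag probe sets above it. With _s_at and _x_at probe sets left out, the best CDC25A value was -0.22 (limma adjusted p = 0.260 over genes) and did not pass. With all 3 averaged, CDC25A passed at -0.25 (limma adjusted p = 0.00483 over genes).

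CDC25A is a known E2F target. The window around its start site is printed because it alone, of the windows searched, held a searched E2F word. That is 1 window of 9, no more than the share of all promoter windows given below, so the match is no result about these genes. RefSeq promoter windows (GRCh38.p14, 250 bases before to 50 after a start site) were searched for 6 of the 10 genes, 9 windows in all. CCNE2 was left out of the search, and no window was given for CCND1, CCND2 or CDK2. The E2F words searched on both strands were TTCCCGC, the variant TTCGCGC, the variant TTGGCGC and the variant TTGCCGC, any of which 13% of 35116 promoter windows hold, and the cell cycle homology word TTTGAA, which 15.2% hold. Capitals below mark the match, 2 overlapping copies of TTGGCGC, 1 on each strand, whose first bases lie at -43 and -40 from the start site (chr3:48188368-48188667, minus strand, 5′ to 3′).
CDC25A: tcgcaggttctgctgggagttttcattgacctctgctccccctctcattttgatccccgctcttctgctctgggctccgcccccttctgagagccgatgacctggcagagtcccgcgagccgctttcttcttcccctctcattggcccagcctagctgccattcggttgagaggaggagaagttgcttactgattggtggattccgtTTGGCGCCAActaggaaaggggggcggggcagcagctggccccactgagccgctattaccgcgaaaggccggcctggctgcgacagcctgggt
None of the searched words occurred in the windows of CCND3, CDK4, CDK6, CCNE1 or CCNA2, which says only that these letters are not in those windows.

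**Figure D2:**
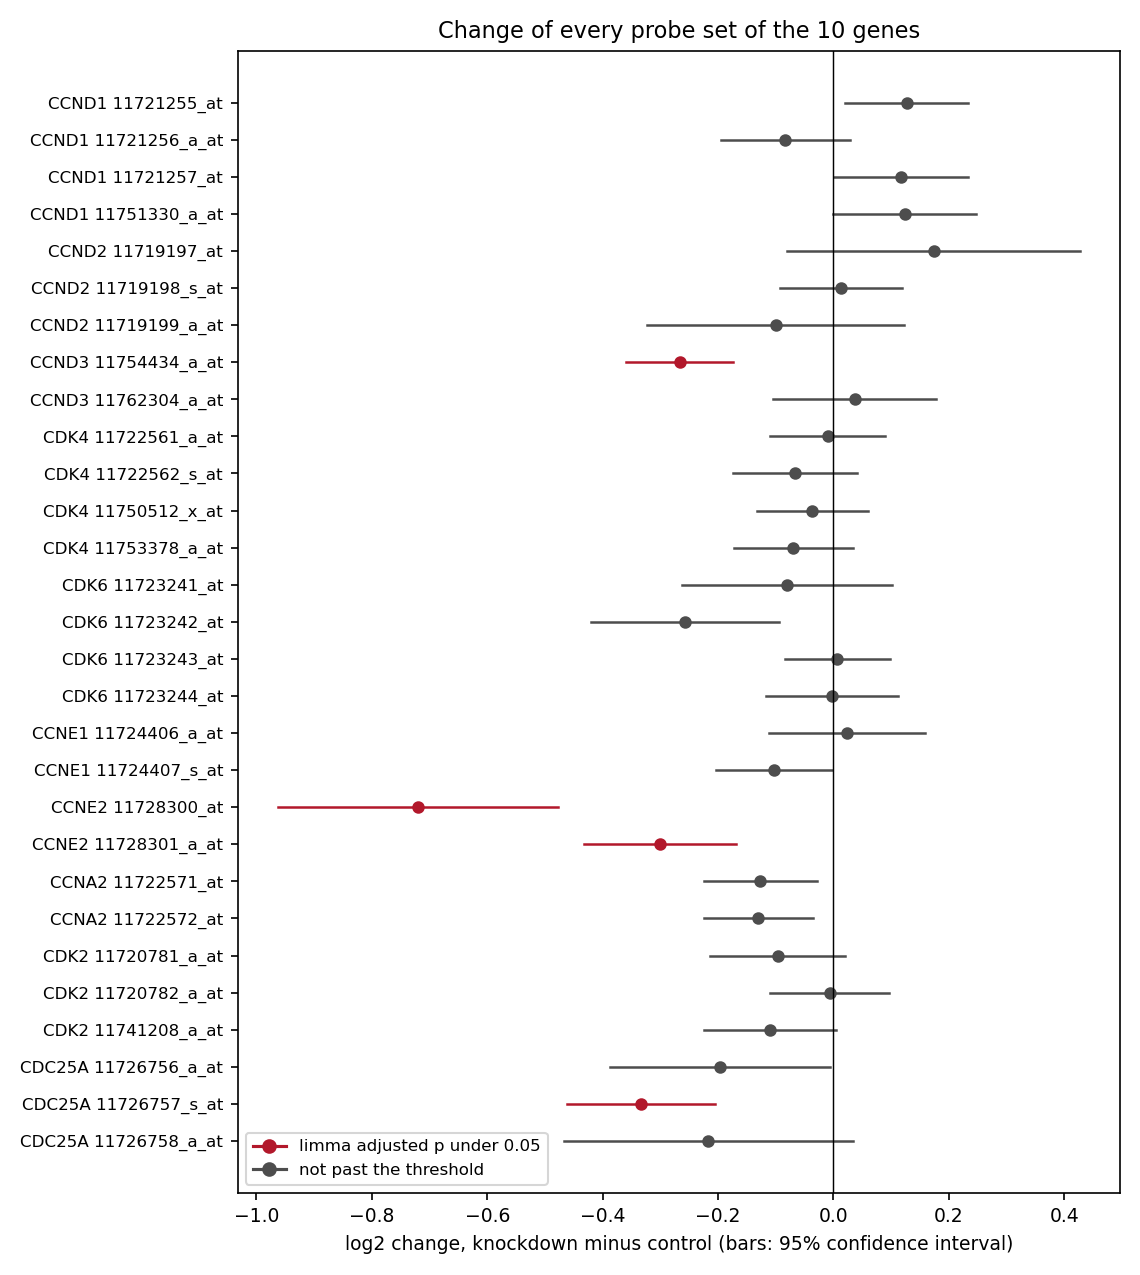
Log2 change (horizontal axis, knockdown minus control) of all 29 probe sets with 95% confidence intervals of the limma fit, grouped by gene. The 4 probe sets past the threshold, of CCND3, CCNE2 and CDC25A, lie between -0.72 and -0.27, and the intervals of CDK4 and of all CDK6 probe sets but 11723242_at cross 0.

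No probe set of these genes differed in its change from the brightest of the same gene past the threshold. The within-array difference between each further probe set and the brightest one of its gene was tested in 1 limma fit over 26856 such differences. Of the 19 differences in these genes, 0 passed (background 0.592%) and 5 had an unadjusted p under 0.05. They were the weaker fall of CCNE2 at 11728301_a_at (0.42 ± 0.13, limma adjusted p = 0.203), the dim CCND3 probe set (0.30 ± 0.063, 0.0963), CDK6 11723242_at (-0.26 ± 0.081, 0.198), CCND1 11721256_a_at (-0.21 ± 0.055, 0.150) and CCNE1 11724406_a_at (0.13 ± 0.053, 0.316). The smallest adjusted p was that of CCND3. The share of all differences with an unadjusted p under 0.05 was not counted.

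How many of the 29 probe sets lay below 0 depends on the scaling of the arrays. The probe sets of CCNE2, CDC25A and CCND3 that passed lay below 0 under every scaling tried, as did those of CCNA2. Scaling to poly-A or hybridization controls lowers every change by 1 amount, so only cyclic loess could have turned these signs. Bacterial hybridization controls were 0.28 higher on knockdown than on control arrays, and scaling to them lowered the median change of all probe sets to -0.29. Over all probe sets 2263 rose and 2590 fell as deposited, 2706 rose and 1885 fell after cyclic loess, 1256 rose and 17199 fell with the poly-A controls, and 557 rose and 40238 fell with the hybridization controls. CCNE2 11728300_at was then at -1.0, CDC25A 11726757_s_at at -0.61 and CCND3 11754434_a_at at -0.55, and after cyclic loess they were at -0.70, -0.31 and -0.24. CCND1 11721255_at turned to -0.15 with the hybridization controls, was at 0.0002 with the poly-A controls and at 0.16 after cyclic loess. CDK4 11750512_x_at was at -0.32 with the hybridization controls and passed there, at a value close to the median shift itself.

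**Figure D3:**
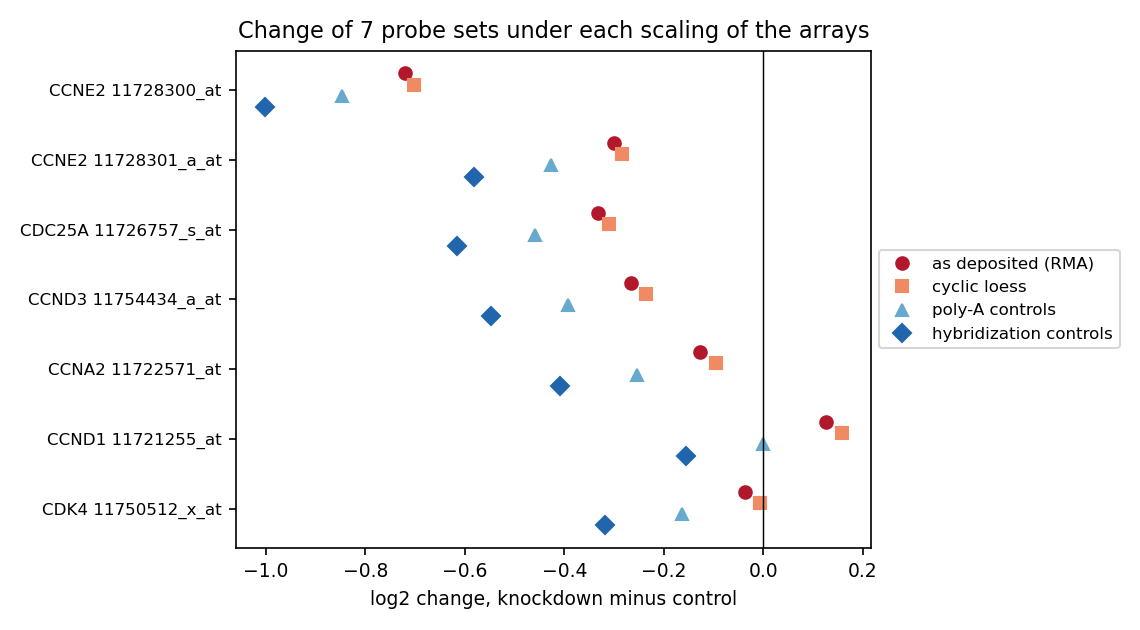
Log2 change (horizontal axis, knockdown minus control) of 7 probe sets with the arrays as deposited, after cyclic loess, and scaled to poly-A or hybridization controls. The control scalings shift all probe sets downward by 1 amount each: CCNE2, CDC25A, CCND3 and CCNA2 lie below 0 under all 4, and CCND1 crosses 0.

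Beyond the 10 genes, CDKN1A, CDKN1B, CDK7 and MYC rose, and RB1, E2F1, E2F2, TFDP1, CCNB1, CCNB2, CDK1, NPAT, CDC6 and CDT1 fell. Of 39 further genes of the G1/S pathway listed, 37 were measured, and CDKN2C and CDK3 are not analysed here. In the fit over 18132 genes, 4 rose (10.8%, against 5.77% of all genes), 10 fell (27.0%, against 6.83%) and 23 did not pass. The median log2 change was -0.05, against -0.01 over all genes. The list was drawn up with earlier results of these data known, so its shares are no independent support. With a mean signal of at least 5, 1875 of 10514 genes fell and 1317 rose, while 12 of the listed genes fell and 6 rose. Values of further probe sets of a listed gene come from the fit over probe sets.

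Among the 6 inhibitors measured, 2 rose and 0 fell, with a median log2 change of -0.04. CDKN1A, which encodes p21, read 10.00, 10.09 and 10.18 on knockdown arrays, against 9.56, 9.57 and 9.48 on control arrays, a change of 0.55 ± 0.055 (SE; limma adjusted p = 0.000891). Its rise was known beforehand from the title of the series. CDKN1B, which encodes p27, rose by 0.19 ± 0.036, but passed only at its _s_at probe set. The other gave 0.05 without overlap of the groups (limma adjusted p = 0.488 over probe sets). The CDKN1B call over genes was lost without control replicate 2 (limma adjusted p = 0.0630). CDKN2A, which A549 cells are known to have lost, averaged 3.74 on knockdown and 3.79 on control arrays, within the background range. CDK7, the kinase that activates CDK2 and CDK4 by phosphorylation, rose by 0.26 ± 0.043 (limma adjusted p = 0.00943), with 8.77, 8.80 and 8.88 on knockdown arrays, against 8.56, 8.59 and 8.53 on control arrays. Its partners CCNH and MNAT1 were at -0.02 and 0.08 and did not pass. CKS1B, on the same list of activators and kinase partners, counts as not passed at its _s_at probe set (-0.03). Its _x_at probe sets gave -0.16 and -0.12 without overlap of the groups, and the first of them passed (limma adjusted p = 0.0407 and 0.144 over probe sets). MYC, a transcription factor upstream of the D-type cyclins, rose by 0.18 ± 0.041, a call that held without knockdown replicate 1 and was lost without any other array (0.0545 to 0.0829). Scaled to the hybridization controls, CDKN1B, CDK7 and MYC were at -0.09, -0.02 and -0.10 and did not pass.

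Of 10 pocket proteins and E2F subunits, 4 fell and 0 rose. E2F1 fell by 0.22 ± 0.046, E2F2 by 0.29 ± 0.060, their dimer partner TFDP1 by 0.21 ± 0.048 and RB1 by 0.24 ± 0.053 (limma adjusted p of 0.0200 to 0.0308). Other RB1 probe sets gave 0.04 and 0.10 and other TFDP1 probe sets -0.08 to 0.00, none past the threshold. E2F2 passed only at its _s_at probe set. Its other probe set, within the background range, gave -0.23 without overlap of the groups (limma adjusted p = 0.0982 over probe sets). The calls of E2F1 and E2F2 were lost on leaving out any control array (0.0525 to 0.0808), and that of RB1 held only without knockdown replicate 1 and that of TFDP1 only without control replicate 1 (otherwise 0.0505 to 0.0881). The other 6 did not pass, with changes between -0.05 for E2F3 and 0.15 for E2F5. Among them, RBL1 and RBL2, pocket proteins related to RB1, were at -0.02 and -0.03. Other probe sets gave -0.20 and -0.17 for RBL1, the first without overlap of the groups (limma adjusted p = 0.0592 over probe sets). For RBL2 they gave -0.14 to 0.07, with no overlap at either end of that range (0.148 and 0.323).

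All 3 substrates of cyclin-CDK2 on the list fell. NPAT, the coactivator of histone genes, fell by 0.31 ± 0.059, the licensing factors CDC6 by 0.29 ± 0.039 and CDT1 by 0.32 ± 0.065 (limma adjusted p = 0.0152, 0.00373 and 0.0201). CDC6 read 9.17, 9.16 and 9.13 on knockdown arrays, against 9.42, 9.49 and 9.42 on control arrays, and its second probe set also passed, at -0.24. The other CDT1 probe sets passed at -0.17 and -0.29, and the other NPAT probe sets, at -0.06 and -0.13, did not. Leaving out 1 array cost the NPAT call without control replicate 2 or 3 (0.0580 and 0.0630), and the CDT1 call without knockdown replicate 2 or 3 or control replicate 1 or 2 (0.0641 to 0.0744). The mitotic cyclin CCNB1 fell by 0.26 ± 0.043. CCNB2 and CDK1 fell by 0.15 ± 0.039 and 0.14 ± 0.037 (limma adjusted p = 0.0499 and 0.0441), both lost on leaving out any 1 array (0.0733 to 0.145). In the fit over probe sets, the same CCNB2 and CDK1 probe sets did not pass (limma adjusted p = 0.0724 and 0.0674). There CDK1 passed at 11745843_a_at, at -0.17 (0.0357), and not at 11760142_at, at -0.28 with overlapping groups (0.126). None of the 5 turnover genes SKP2, SKP1, CUL1, FBXW7 and AMBRA1, which serve the ubiquitin-dependent destruction of cyclins or of their inhibitors, passed, with changes of -0.13 to 0.15 (3 had an unadjusted p under 0.05), nor did WEE1, the kinase that opposes CDC25A.

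**Figure D4:**
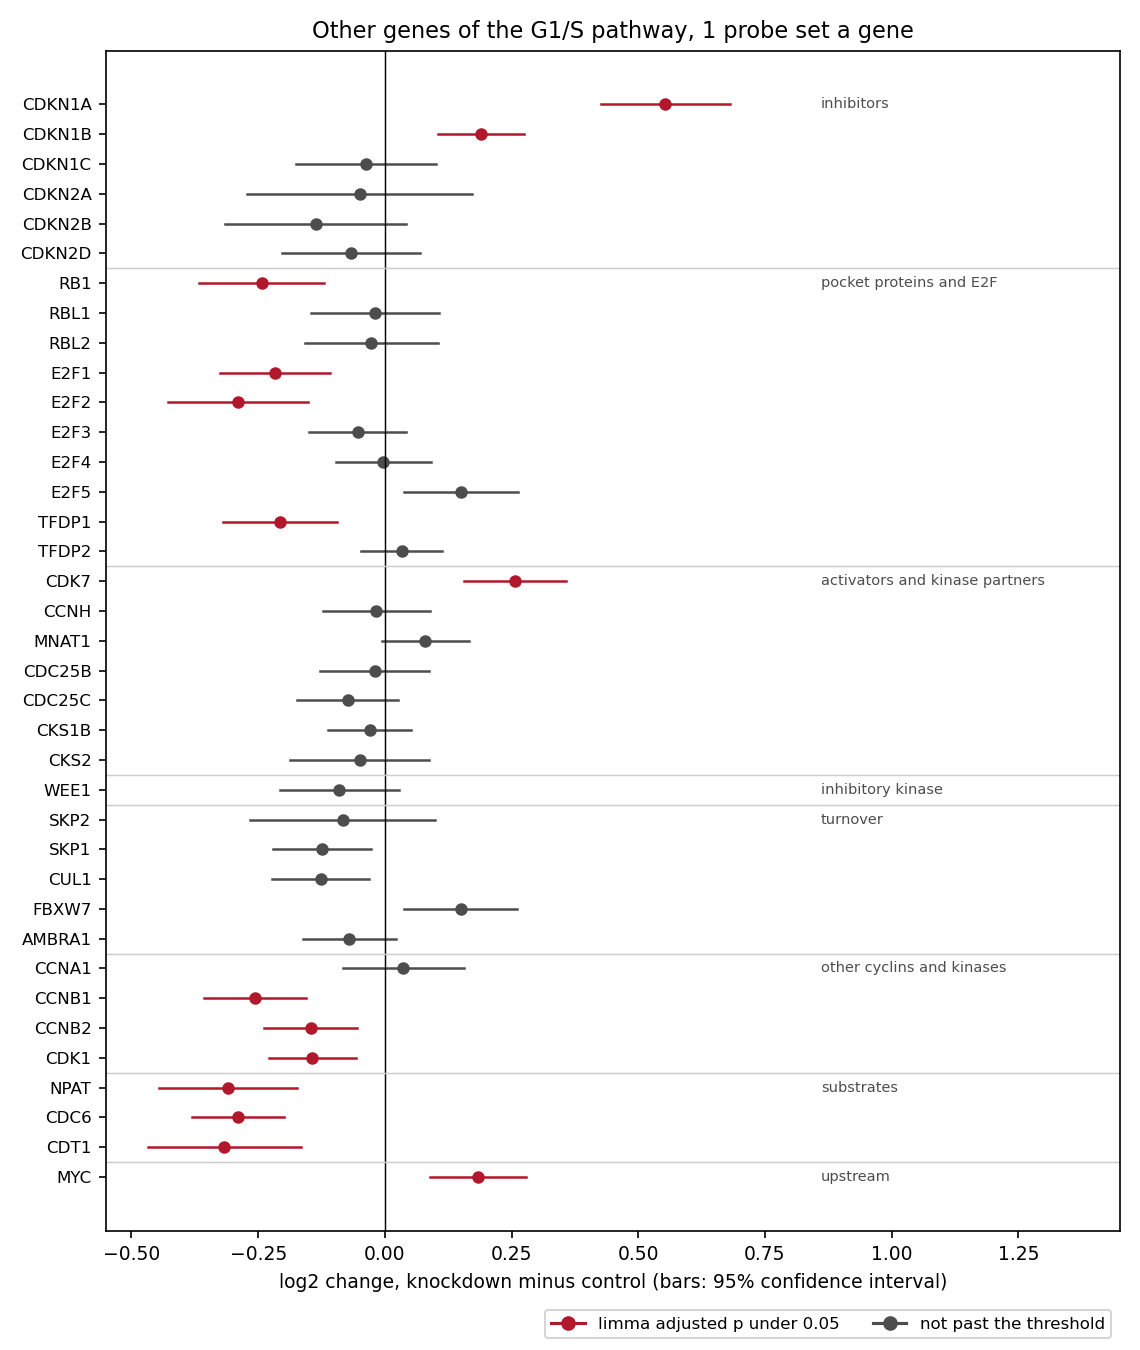
Log2 change (horizontal axis, knockdown minus control, with 95% confidence intervals of the limma fit) of the 37 other genes of the G1/S pathway, 1 probe set a gene, in the groups named at the right. The 4 genes past the threshold above 0 are CDKN1A, CDKN1B, CDK7 and MYC, and the 10 below it lie between -0.32 and -0.14.

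Outside these genes, the 5 whose 6 values, taken as differences from the control mean, lay closest to those of CCNE2 were THBS1, AXIN2, E2F8, NBPF1 and PCDH9 (root mean square difference of 0.11 to 0.15 log2 units over the 6 arrays). The measure favours genes with a similar fall, so the list restates the size of the change. E2F8, a repressor of the E2F family, read 5.71, 5.72 and 5.82 on knockdown arrays, against 6.27, 6.25 and 6.40 on control arrays. Like CCNE2, E2F8, THBS1 and AXIN2 had their highest control value on replicate 3, while NBPF1 and PCDH9 did not. The measure also favours such a match.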

How the data were processed

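The authors deposited log2 values of 49372 probe sets on 6 arrays. Per the submitters' processing notes these came from RMA, which corrects background, makes the arrays' distributions equal by quantiles and summarizes probes; the sources used here do not give the software or its version. Array medians were 5.10 to 5.11, so nothing was normalized again. RMA understates differences near background. Gene names came from the platform annotation: 44994 had 1 symbol, updated by gene identifier (44967 found in the GRCh38.p14 gene table), 1832 had several and 2546 none.

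The knockdown was compared with the control by lmFit and eBayes (limma 3.58.1, R 4.3.3; 2-sided, no covariate) over 49293 probe sets, without the 79 control probe sets, and over 18132 genes, each by its probe set of highest mean signal. Adjusted p-values are Benjamini-Hochberg, with a threshold of 0.05. Exact permutation tests were 2-sided. The pipeline was tested on simulated data. The members, gene lists and rules were chosen with earlier results of these data known. All 10 members are named, and of other pathway genes chiefly those past the threshold. RBL1, RBL2, E2F3, E2F5, CCNH, MNAT1, CKS1B, CDKN2A, WEE1 and the turnover genes were named after their values were seen. Alternatives were other variance models, scalings, filters on dim or cross-hybridizing probe sets, probe set averages, a replicate block and leaving out each array. Figures used matplotlib 3.10.9.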

Additional observations from a re-analysis of the deposited data

How the results depend on the processing

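Counts of calls moved with the variance model, the scaling and the filters. Of the 29 probe sets 4 passed as reported, all lower (9.85% of all probe sets, either way). Without variance moderation 1, CCND3, passed (4.66% of all), with an intensity trend 8, of which 1 rose (16.4%), scaled to hybridization controls 25, all lower (82.8%), and scaled to poly-A controls 17, all lower (37.4%). Of the 10 genes 3 passed as reported (12.6% of all genes), and under those settings 1 (7.25%), 5 (19.4%), 9 (84.5%) and 7 (41.5%); 5 of the 9 left with a mean signal of at least 5 passed (30.4%). CCND1 is the 1 that rose among those 5 genes in each case, and it also rose after cyclic loess. Of the 37 other pathway genes, 14 passed as reported, 6 without moderation and 32 scaled to hybridization controls. With 1 array left out 4 to 11 passed, against 6.07% to 8.69% of all genes. Without moderation CCNE2 and CDC25A kept their values at adjusted p = 0.0810, 0.0860 and 0.0659. Scaled to hybridization controls, CCND2 11719198_s_at, CCND3 11762304_a_at, CDK6 11723243_at and CCNE1 11724406_a_at turned to -0.27, -0.24, -0.27 and -0.26 and passed, and CDKN1B, CDK7 and MYC turned to -0.091, -0.025 and -0.10; that scaling subtracts 0.28 from every value. In all, 32 of 447 alternative values of the 29 probe sets had the other sign, 28 of them past the threshold in neither setting. With probe sets averaged, the CCND1 minus CCND3 change was 0.19 and the CDK4 minus CDK6 change turned to 0.038.

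Same-numbered arrays of the 2 groups hardly deviated together (correlations of 0.093, 0.062 and -0.0072), and the numbers were therefore not treated as pairs. With the replicate block 3 of the 29 probe sets passed (6.84% of all probe sets), CCNE2 11728301_a_at being lost (limma adjusted p = 0.0515). In that fit 8 other pathway genes passed (8.63% of all genes). No detection calls were used, and near the Tag signals a difference, that of LINC00525 included, cannot be relied on.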
